A study of Canis lupus familiaris with 30 samples.

Results

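*KIT*, *PDGFRA* and *PDGFRB* encode receptor tyrosine kinases of one family, and *KITLG*, *PDGFA*, *PDGFB*, *PDGFC* and *PDGFD* encode their ligands. These 8 genes, 3 receptors and 5 ligands, were taken by gene symbol from the 30424 genes counted in canine thyroid carcinomas (TC), and all 8 passed the filter on low counts. RNA was sequenced from 30 primary tumors of the thyroid gland, 1 library per tumor, with no treatment and no normal tissue among the samples described here. The sample labels call every sample tumor tissue and give no diagnosis. The study lists 25 of the tumors as follicular TC (FTC) and 5 as medullary TC (MTC: TC1020, TC1473, TC1601, TC1936 and TC2289), mainly from calcitonin staining, and TC1020, with very faint staining, was called MTC from its calcitonin transcripts. Because that list is not part of the labels, values of the 5 MTC are given one by one beside the range of the 25 FTC, without a test between them.

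Binding of a ligand brings receptor chains of this family together, and the chains then phosphorylate each other and recruit adaptors of the RAS, PI3K and STAT pathways. KIT and its ligand, stem cell factor, act in mast cells, germ cells, melanocytes and blood progenitors. PDGFRA is known from fibroblasts and other mesenchymal cells, and PDGFRB from pericytes and vascular smooth muscle, which endothelial cells attract by secreting PDGF-B. Both kinds of receptor are targets of tyrosine kinase inhibitors, including toceranib, which is used in dogs.

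The total count per tumor was 12288945 to 45148677 (median 25569678). Normalized counts are counts scaled by median-of-ratios size factors, and levels are log2 of a normalized count plus 1. Transcript lengths were not used, so levels are compared between tumors and not between genes. The marker genes of follicular cells had a median summed normalized count of 671310 in FTC and 3675 in MTC, and those of C cells, the calcitonin-producing cells, 836 and 385109. The follicular sums overlapped, with 262 to 7131400 in FTC and 975 to 226946 in MTC, so the lowest FTC lay below every MTC. The C-cell sums were 189 to 9750 in FTC and 281201 to 874215 in MTC. In a clustering on 764 variable genes, the 5 MTC formed one branch and the 25 FTC the other, so correlations are given over the 25 FTC alone. In this set TC538 had the lowest total, the smallest size factor (0.279), 37.0% of its counts on 10 genes and the fewest genes with at least 10 counts (13515). TC1088, which the study set aside as an outlier in its differential expression analysis, was kept here, and results that depend on TC1088 or TC538 are also given without that tumor.

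*KIT* (ENSCAFG00000002065) was low in 4 of the FTC and at least 1266 in normalized count in the other 21. Its normalized count in the 25 FTC had a lowest value of 89.0 (TC1744), a median of 2775 and a highest value of 9920 (TC538), a range of 111-fold. Without TC538 the highest value was 6332 (TC1241) and the range 71.1-fold. The lowest values were 89.0 in TC1744, 134 in TC902, 156 in TC1994 and 219 in TC627, and the next was 1266 in TC1869. On the log2 scale these 4 tumors lay between 6.49 and 7.78 and the other 21 FTC between 10.31 and 13.28, so that a gap of 2.53 separated them. Their counts of *KIT* before scaling were 95, 189, 111 and 175, well above the 3 counts that a count of 0 allows. Among MTC the normalized count of *KIT* was 3638 in TC1020, 1154 in TC1473, 3327 in TC1601, 325 in TC1936 and 487 in TC2289. All 5 fell within the range of the FTC, and TC1936, TC2289 and TC1473 lay in the gap between the 4 low and the other FTC. The SD of the *KIT* level over FTC was 1.80, and 98.6% of the 1000 genes closest to it in mean level had a smaller SD (median 0.67).

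*KITLG* (ENSCAFG00000006091), which encodes the only known ligand of KIT, had normalized counts from 315 (TC1869) to 6353 (TC538) in FTC, with a median of 819, and a highest value of 2607 without TC538. In MTC it had 138 in TC1020, 1222 in TC1473, 570 in TC1601, 165 in TC1936 and 71.7 in TC2289. TC1020, TC1936 and TC2289 lay below every FTC. In the 4 FTC with low *KIT*, *KITLG* was 470 in TC1744, 1012 in TC902, 1524 in TC1994 and 920 in TC627, inside the range of the other FTC. The levels of receptor and ligand were not correlated at the threshold of 0.05 (rho = 0.08, permutation p = 0.715, Benjamini-Hochberg adjusted p = 0.959 over 18105 genes, n = 25). Pearson's r was 0.15 (permutation p = 0.487), and 0.06 without TC1744 and TC902, the tumors farthest from the median of *KIT*. Within the 21 FTC of higher *KIT*, rho was 0.12 (permutation p = 0.608). TC538 had the highest value of both genes, and without it rho was -0.04.

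**Figure D1:**
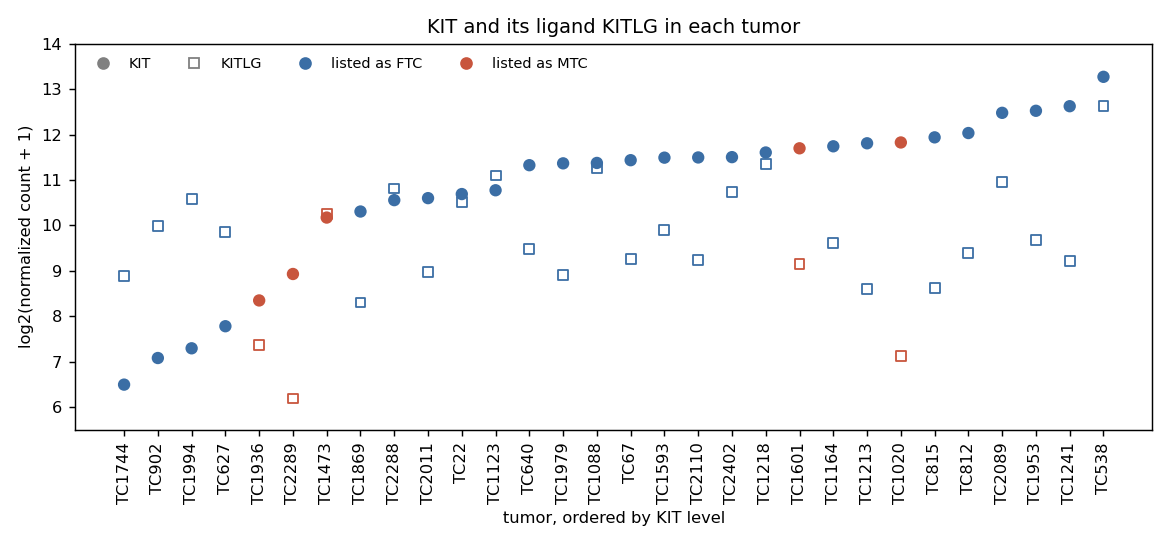
Levels of *KIT* (filled circles) and *KITLG* (open squares) as log2(normalized count + 1) in each of the 30 tumors, ordered along the x axis by the *KIT* level. Blue marks tumors listed as FTC and red those listed as MTC. The 4 FTC with the lowest *KIT*, between 6.49 and 7.78, are followed by 3 MTC before the next FTC at 10.31, and *KITLG* does not follow the same order.

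*PDGFRA* (ENSCAFG00000002057) varied widely over FTC and was highest in TC1088. Its normalized count went from 8.00 (TC1218) through a median of 67.6 to 1173 (TC1088), a ratio of 147, which was 42.5 without TC1088. TC1088 stood alone at the upper end, with 1177 counts, and the next FTC was TC2089 at 341. At the lower end TC1218 had 13 counts and TC812 had 9 (normalized count 8.22), so that these values are imprecise. Counts were also low in TC627 (13), TC640 (15), TC1241 (17) and TC538 (17). In MTC the normalized count was 60.9 in TC1020, 349 in TC1473, 724 in TC1601, 18.0 in TC1936 and 241 in TC2289, all within the FTC range. The SD of the level over FTC was 1.64, and 1.43 without TC1088. Of the 1000 genes of like mean level, 82.8% had an SD smaller than 1.64 (median 1.04).

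*PDGFRB* (ENSCAFG00000018214) ranged from 199 (TC1088) through a median of 1739 to 6126 (TC1979) in FTC. TC1088 thus had the lowest *PDGFRB* and the highest *PDGFRA* of the FTC. In MTC it was 2140 in TC1020, 1452 in TC1473, 6563 in TC1601, 1750 in TC1936 and 883 in TC2289. TC1601 was above every FTC and the other 4 MTC were within the range. The SD of the level over FTC was 1.18, and 93.2% of the 1000 genes of like mean level varied less. The levels of *PDGFRA* and *PDGFRB* were not correlated at the threshold over the 25 FTC (rho = 0.13, permutation p = 0.525, adjusted p = 1). Pearson's r was -0.08 (permutation p = 0.713), and 0.35 (permutation p = 0.102) without TC1088 and TC1218. *KIT* passed the threshold with neither of them. With *PDGFRA* its rho was -0.11 and its r -0.03 (permutation p = 0.612 and 0.875), with an r of -0.01 without TC1744 and TC902. With *PDGFRB* rho was -0.28 and r -0.29 (permutation p = 0.179 and 0.161), with an r of -0.22 without those 2 tumors. Within the 21 FTC of higher *KIT*, rho was -0.13 with *PDGFRA* and -0.11 with *PDGFRB* (permutation p = 0.568 and 0.636).

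*PDGFA* (ENSCAFG00000011193), whose product binds PDGFRA, had normalized counts from 212 (TC538) through a median of 851 to 7049 (TC1088) in FTC. The highest value was again in TC1088, followed by 3584 in TC2011 and 2830 in TC815. In MTC *PDGFA* was 1478 in TC1020, 900 in TC1473, 1892 in TC1601, 247 in TC1936 and 410 in TC2289, within the FTC range. Its correlation with *PDGFRA* over the 25 FTC had a rho of 0.34 (permutation p = 0.0938, adjusted p = 1) and an r of 0.46 (permutation p = 0.0222). After adjustment over all genes the permutation p of r was 0.79, so neither coefficient passed. Without TC1088 and TC1218, r was 0.19 (permutation p = 0.396) and rho 0.21 (permutation p = 0.334). The unadjusted p of r below 0.05 thus depended on those tumors.

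*PDGFB* (ENSCAFG00000001356), whose product binds both PDGF receptors, ranged from 17.9 (TC538, 5 counts) through a median of 236 to 1027 (TC22) in FTC, and its lowest value was 116 (TC1088) without TC538. In MTC it was 605 in TC1020, 231 in TC1473, 1411 in TC1601, 353 in TC1936 and 316 in TC2289. TC1601 lay above every FTC, as it did for *PDGFRB*.

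*PDGFC* (ENSCAFG00000008612), whose product must be cleaved before it binds PDGFRA, varied least among the 8 genes. It ranged from 837 (TC2110) through a median of 1731 to 4120 (TC640) in FTC, a ratio of 4.92, and 51.2% of the genes of like mean level had a smaller SD than its 0.67. In MTC it was 190 in TC1020, 474 in TC1473, 986 in TC1601, 228 in TC1936 and 167 in TC2289. The normalized counts of TC1020, TC1473, TC1936 and TC2289 were below every FTC, and TC1601 was below the FTC median. At least 3 of the 5 MTC were below the range of the FTC for *PDGFC* and *KITLG*, 2 of the 8 genes, and the same held for 608 of 18711 genes (3.25%). MTC and FTC also differ in the cell of origin, and in bulk tissue fewer cells of a type and less RNA per cell cannot be told apart.

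*PDGFD* (ENSCAFG00000032342), whose product acts mainly through PDGFRB, ranged from 151 (TC812) through a median of 430 to 1430 (TC1241) in FTC. In MTC it was 243 in TC1020, 532 in TC1473, 5923 in TC1601, 2777 in TC1936 and 64.1 in TC2289. TC1601 and TC1936 exceeded every FTC and TC2289 lay below every FTC, so that the MTC spread over a wider range (92.5-fold) than the 25 FTC (9.49-fold).

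**Figure D2:**
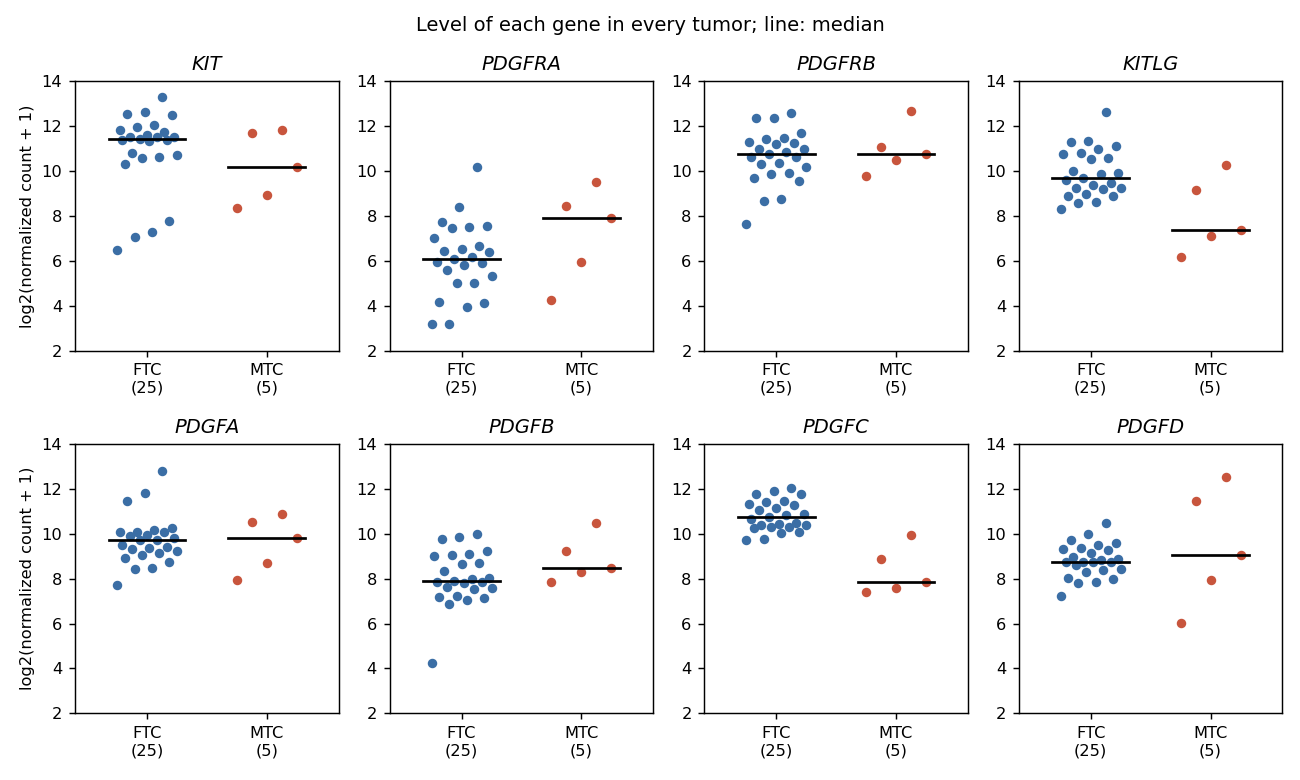
Level of each of the 8 genes, as log2(normalized count + 1), in every tumor, with the 25 tumors listed as FTC (blue) and the 5 listed as MTC (red) side by side and black lines at the medians. *KIT* shows 4 low FTC, *PDGFRA* a single high FTC (TC1088) and *PDGFB* a single low FTC (TC538, 5 counts), and for *PDGFC* 4 of the 5 MTC lie below the FTC.

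Of the 9 pairs of receptors and ligands or of receptors examined, the pair of *PDGFRB* and *PDGFB* alone passed the threshold over the 25 FTC (rho = 0.87, permutation p = 1e-05, the smallest the permutations can give, adjusted p = 0.00119). Pearson's r was 0.81 (permutation p = 1e-05), and 0.83 without TC1088 and TC538 (permutation p = 2e-05). The highest values of both genes were in TC22, TC1979 and TC1213, with 5240, 6126 and 5288 normalized counts of *PDGFRB* and 1027, 916 and 859 of *PDGFB*. TC1088 and TC538 had the lowest values of both genes. Of all 18105 genes, 532 (2.94%) passed as positive with *PDGFRB*, 14 (0.0773%) with *KIT* and 9 (0.0497%) with *PDGFRA*. As negative, 1.23%, 0.149% and 0% passed. At those shares, the lack of a call for pairs tested with *KIT* or *PDGFRA* is no result about these pairs. *PDGFB* against *PDGFRA* gave a rho of 0.14 (permutation p = 0.491, adjusted p = 1) and an r of 0.02 (permutation p = 0.928), with an r of 0.26 without TC1088 and TC1218.

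*PDGFD* against *PDGFRB* did not pass (rho = 0.43, permutation p = 0.0331, adjusted p = 0.177). Pearson's r was 0.31 (permutation p = 0.136), and 0.51 without TC1088 and TC538 (permutation p = 0.0124). *PDGFC* against *PDGFRA* was negative and did not pass (rho = -0.29, permutation p = 0.158, adjusted p = 1). Pearson's r was -0.35 (permutation p = 0.0877), and -0.39 without TC1088 and TC1218.

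**Figure D3:**
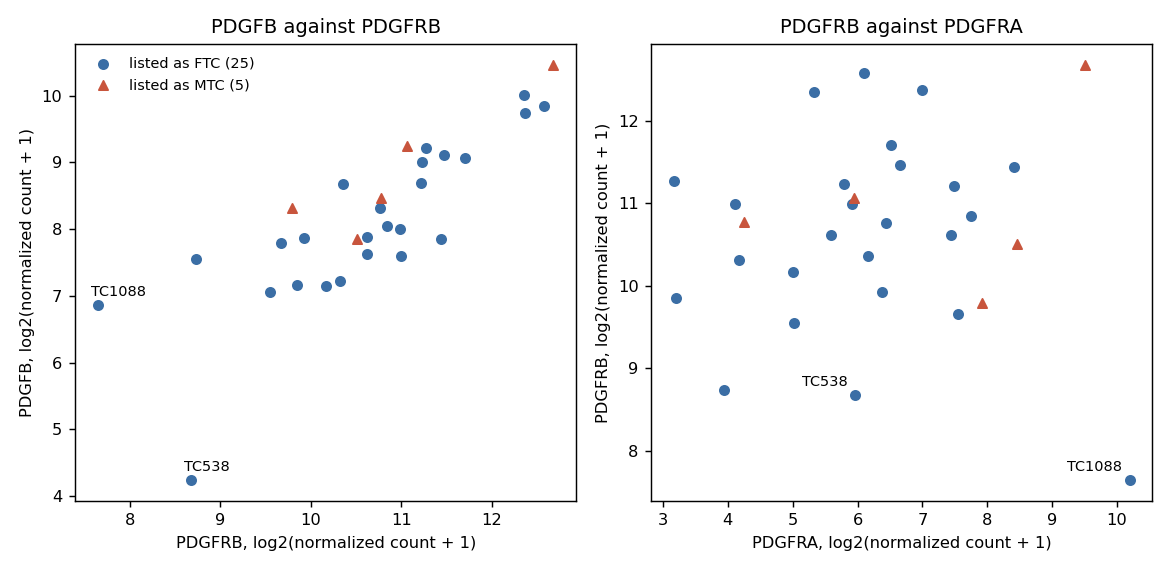
*PDGFB* against *PDGFRB* (left) and *PDGFRB* against *PDGFRA* (right), both axes log2(normalized count + 1), with 1 point per tumor, circles for the 25 FTC and triangles for the 5 MTC. On the left the FTC rise together (rho 0.87), with TC1088 and TC538 at the lower end, and on the right TC1088 lies apart with the highest *PDGFRA* and the lowest *PDGFRB* of the FTC (rho 0.13).

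Over all 18105 genes tested, 532 (2.94%) were positively and 223 (1.23%) negatively correlated with *PDGFRB* at an adjusted p below 0.05. The genes most like it were *COL4A1*, a collagen of basement membranes (rho = 0.95), *MCAM*, a marker of pericytes and endothelium (0.95), *CD34*, found on endothelial and progenitor cells (0.95), *LRRC32*, which anchors latent TGF-beta (0.94), and *DYSF*, a membrane repair protein (0.94). Each had a permutation p of 1e-05, the smallest possible, and an adjusted p of 0.00119. Their Pearson coefficients were 0.86 to 0.96 (permutation p = 1e-05 for each), and 0.90 to 0.95 without TC1088 and TC538. Most unlike it were *OMA1*, a mitochondrial protease (rho = -0.81), *NSUN6*, an RNA methyltransferase (-0.81), *MTPAP*, the mitochondrial poly(A) polymerase (-0.75), *ST13*, a co-chaperone (-0.75), and *KDM1A*, a histone demethylase (-0.74). Their adjusted p values were 0.00119 to 0.00464, and their Pearson coefficients -0.82 to -0.71 (permutation p of 9e-05 or less), or -0.78 to -0.69 without the same 2 tumors. The number of negative correlations depended on single tumors, with 49 without TC538 and 119 without TC1088.

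The markers of vessels rose and fell with *PDGFRB* over the FTC. Of 13 mural cell markers 11 passed the threshold, all positive, beside 2.94% of all genes passing as positive. The median rho was 0.76 over the 13, beside a median of 0.02 over all genes. *MCAM* (0.95), the smooth muscle actin *ACTA2* (0.89) and the pericyte proteoglycan *CSPG4* (0.87) led this list. Of 13 endothelial markers 10 passed, all positive (median rho 0.83), led by the junction protein *CDH5* (0.94) and the endothelial receptors *ROBO4* (0.92) and *TIE1* (0.92). The Pearson coefficients of these 6 genes lay between 0.86 and 0.95 (permutation p = 1e-05 for each), and between 0.84 and 0.95 without TC1088 and TC538. Over the 25 FTC the summed normalized count went from 5292 to 39910 for the mural list and from 6297 to 41817 for the endothelial list, both highest in TC22. *PDGFB* had a median rho of 0.76 with the mural and 0.79 with the endothelial markers, and its nearest genes were *COL4A2* (rho = 0.94), *COL4A1* (0.93) and the mural and stromal marker *CD248* (0.93). Pearson's r of these with *PDGFB* was 0.93 to 0.96. The part of the vessel markers in the correlation of *PDGFRB* with *PDGFB* was not tested.

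Of 11 fibroblast markers tested with *PDGFRB*, 4 passed, all positive, with a median rho of 0.46, and 2 passed without TC1088. The 3 strongest were *THY1* (rho = 0.80, r = 0.85), the collagens *COL6A3* (rho = 0.73, r = 0.78) and *COL3A1* (rho = 0.63, r = 0.59, adjusted p = 0.035). Without TC1088 and TC538, r was 0.76, 0.67 and 0.60. *COL3A1* did not pass without TC1088 (adjusted p = 0.0627). Of 7 macrophage markers, *CSF1R* and *C1QB* passed (rho = 0.71 and 0.61), and *C1QB* did not pass without TC1088 (adjusted p = 0.0774). Without TC538 1 of the 7 passed. Of 11 follicular cell markers 0 passed the permutation test of rho after adjustment (median rho 0.25), with 3 at an unadjusted p below 0.05, and 2 passed with Pearson's r. Of 7 C-cell markers 0 passed (median rho 0.15), with 2 unadjusted and 0 with Pearson's r. In the platelet, skeletal muscle and adipocyte lists 0 of 2, 5 and 3 genes passed, with 0, 1 and 2 unadjusted and, with Pearson's r, 0, 0 and 1. Beside these unadjusted counts, 1986 of all 18105 genes were positive and 2253 negative with *PDGFRB* at an unadjusted permutation p below 0.05. After adjustment 2.94% of all genes passed as positive and 1.23% as negative, so the lists with 0 calls give no result about their genes.

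Among the relatives of the family and their ligands, *CSF1R*, the macrophage receptor, and its ligand *CSF1* passed with *PDGFRB*, 2 of 5 genes (rho = 0.71 and 0.69, r = 0.68 and 0.66, adjusted p = 0.00856 and 0.0095). Without TC1088 and TC538, r was 0.64 for each. *IL34*, the other CSF1R ligand, had a rho of 0.56 (adjusted p = 0.0682), and passed without TC1088 (rho = 0.75, adjusted p = 0.00564). Of 28 genes of receptor signalling, the adaptor *GAB2* and the SRC family kinases *LYN* and *FYN* passed, all positive (rho = 0.67, 0.67 and 0.59, r = 0.65, 0.54 and 0.58), and r was 0.61, 0.69 and 0.67 without TC1088 and TC538. The adjusted p of *FYN* was 0.0496. The median rho of the 28 genes was 0.15. Of 4 genes of PDGF cleavage and co-reception 0 passed with *PDGFRB* (2 unadjusted, 0 with Pearson's r), of which *FURIN*, a protease of the secretory pathway, had the largest rho (0.44, adjusted p = 0.172). Of all 18105 genes, 2.94% passed as positive and 1.23% as negative with *PDGFRB*. At those shares 0 of 4 is no result about these genes. Whether 2 of 5 or 3 of 28 exceeds the shares was not tested.

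Few genes passed with *PDGFRA*. Of the 18105 genes, 9 (0.0497%) were positively and 0 (0%) negatively correlated at the adjusted threshold, while 525 and 224 had an unadjusted permutation p below 0.05. With Pearson's r the counts were 20 and 0. Without TC1088 there were 52 positive calls, and without TC538 16. The genes most like *PDGFRA* were the laminin *LAMA2* (rho = 0.88), the zinc finger gene *ZFHX4* (0.86), *AADAC*, an esterase gene (0.85), the matrix protein gene *SVEP1* (0.82) and *TM4SF1*, a membrane protein gene (0.80). Each had an adjusted p of 0.0259. *AADAC* had a median level of only 3.01 over FTC, so its rank order rests on few counts. Their Pearson coefficients were 0.69 to 0.90 (permutation p of 0.00019 or less), and 0.77 to 0.87 without TC1088 and TC1218. The lowest rho was -0.71 for *ENTPD7* (r = -0.55, adjusted p = 0.0866), followed by *HDAC9* (-0.63), *NIPAL2* (-0.61), *SORCS1* (-0.60) and *SLC22A15* (-0.56), none of which passed.

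Fibroblast markers had the highest median rho with *PDGFRA* of the 14 lists, 0.64 over 11 genes, beside a median of -0.01 over all genes, and a positive sign in 11 of 11. Of these, 2 passed the threshold over the 25 FTC, *DCN*, a matrix proteoglycan (rho = 0.79, r = 0.59, adjusted p = 0.0402), and *FBLN1*, a matrix glycoprotein (rho = 0.78, r = 0.69, adjusted p = 0.0402). The third, *FAP*, a protease of activated fibroblasts, did not (rho = 0.71, r = 0.64, adjusted p = 0.112). Without TC1088 and TC1218, r was 0.88, 0.75 and 0.87. Without TC1088 alone 8 of the 11 passed and the median rho was 0.83. The 13 mural and 13 endothelial markers had median coefficients of 0.05 and 0.05, and 0 of them passed, with 0.17 and 0.19 and again 0 without TC1088. In the 13 lists other than fibroblasts, 0 of 113 genes passed with *PDGFRA*, with 7 positive and 1 negative at an unadjusted p below 0.05 and 0 with Pearson's r. Of all 18105 genes, 0.0497% passed as positive and 0% as negative (525 and 224 genes unadjusted), so 0 of 113 is no result about these lists. The summed fibroblast markers ranged from 2838 to 119586 normalized counts over FTC, highest in TC2089, the tumor with the second highest *PDGFRA*. The part of fibroblast content in the *PDGFRA* level was not tested.

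**Figure D4:**
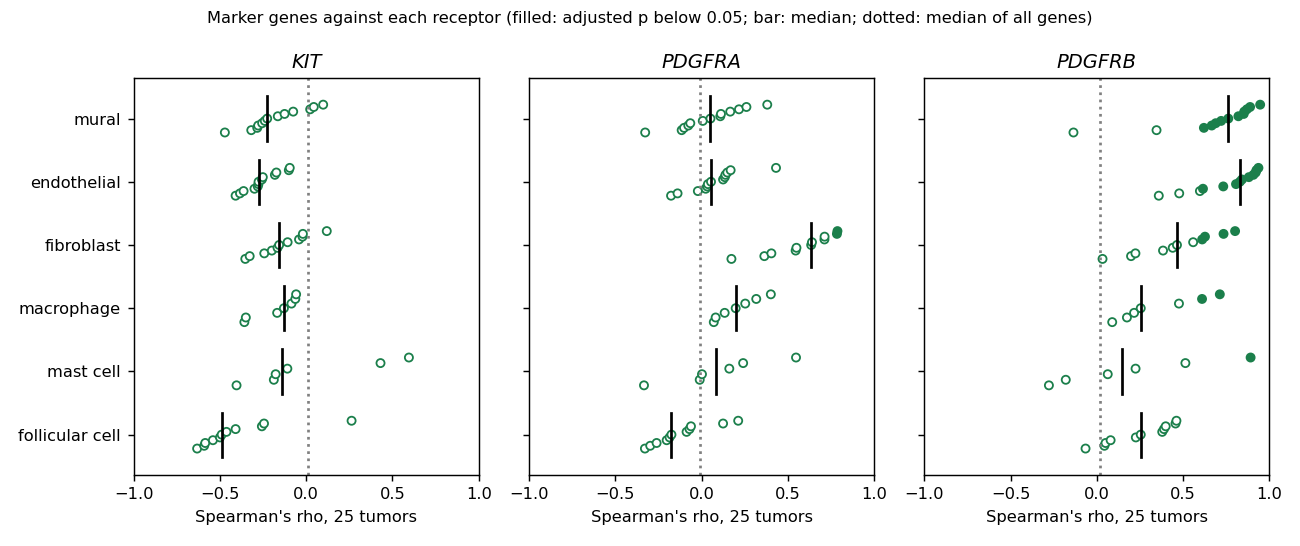
Spearman's rho over the 25 FTC between each receptor and each marker gene of 6 cell types, with 1 point per marker, filled where the adjusted p was below 0.05, a bar at the median of the list and a dotted line at the median of all genes. Mural and endothelial markers lie to the right for *PDGFRB* (medians 0.76 and 0.83), fibroblast markers for *PDGFRA* (median 0.64), and no point is filled for *KIT*.

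For *KIT*, 14 of 18105 genes (0.0773%) were positively and 27 (0.149%) negatively correlated at the adjusted threshold. The most alike were *B4GALT6*, a glycosphingolipid synthesis gene (rho = 0.87), *MMD* (0.85), the transcription factor gene *ZNF217* (0.80), *TMEM218* (0.77) and the integrin gene *ITGAE* (0.76). The most unlike were *MGLL*, a monoglyceride lipase gene (rho = -0.79), the desmosomal gene *PPL* (-0.78), the kinase gene *BRSK2* (-0.76), *EPS8L1* (-0.76) and *UBN1*, a histone chaperone gene (-0.75). Adjusted p values of these 10 genes were 0.0302 to 0.0422. Their Pearson coefficients were 0.66 to 0.78 and -0.81 to -0.64 (permutation p of 0.00048 or less), or 0.57 to 0.74 and -0.69 to -0.56 without TC1744 and TC902. Without TC1088 there were 28 positive and 47 negative calls, and without TC538 34 positive. The calls also depended on the 4 FTC of low *KIT* and on the rank measure. With Pearson's r, 0 genes were called in either direction (849 positive and 802 negative at an unadjusted permutation p below 0.05). *B4GALT6* and *UBN1* had the smallest p that the permutations can give (1e-05) for r. This count of 0 is therefore also limited by the number of permutations. Within the 21 FTC of higher *KIT*, a set chosen after the values were seen, 0 were called as well (698 and 770 unadjusted). There the 10 named genes had rho of 0.60 to 0.81 and -0.74 to -0.59, with adjusted p of 0.151 to 0.391. These genes were picked for the most extreme rho over all FTC, which include the 21. That they kept their sign is therefore no separate test of the correlations.

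Over the 25 FTC, 0 of 124 genes of the 14 lists passed with *KIT*, with 5 positive and 15 negative at an unadjusted permutation p below 0.05 and 0 with Pearson's r. Of all 18105 genes, 0.0773% passed as positive and 0.149% as negative, so 0 of 124 is no result about the lists. At the unadjusted threshold, 900 of the 18105 were positive and 897 negative. Follicular cell markers had the lowest median rho (-0.49), with a negative sign in 10 of 11 and 8 of 11 at an unadjusted p below 0.05, beside a median of 0.01 over all genes. The strongest were the iodide transporter *SLC5A5* (rho = -0.63, r = -0.53, adjusted p = 0.105) and the transporter *SLC5A8* (rho = -0.59, r = -0.50, adjusted p = 0.167). Without TC1744 and TC902, r was -0.49 and -0.48. Without TC538 1 of the 11 passed, and within the 21 FTC of higher *KIT* the median rho was -0.39 with 0 passing. The study reported that *KIT* anti-correlated, within FTC, with a differentiation score built from thyroid genes. Both observations come from the same tumors, so neither is independent of the other.

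Mast cells carry KIT, and their markers were given beside it. Of 10 markers 9 were present in the table and 6 passed the count filter. The defining markers were scarce, with highest normalized counts of 71.9 for *CPA3*, 43.0 for *MS4A2* and 6.12 for *HDC* over the 30 tumors, of which 5, 3 and 11 had a count of 0 for these genes. The summed list ranged from 95.7 to 5742 in FTC, the latter in TC1241, and from 53.9 to 302 in MTC. Much of the highest sum came from the monoamine transporter *SLC18A2*, which reached 5701 and had a rho of 0.60 with *KIT* (r = 0.40, adjusted p = 0.161). *IL1RL1* had a rho of 0.43 with *KIT* (r = 0.29, adjusted p = 0.449) and *GATA2* one of -0.40 (r = -0.33, adjusted p = 0.492). The median rho of the 6 markers with *KIT* was -0.14, with 2 positive and 1 negative at an unadjusted permutation p below 0.05. *CPA3* had a rho of -0.19. With *PDGFRB*, *GATA2*, a transcription factor of mast and endothelial cells, was the one gene of the list that passed (rho = 0.89, r = 0.87, adjusted p = 0.00119), and 2 genes passed without TC538.

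The signalling genes of *KIT* had a median rho of -0.01, with the transcription factor *STAT5A* (rho = -0.52, adjusted p = 0.262), the phospholipase *PLCG1* (0.43, adjusted p = 0.455) and *STAT3* (-0.36, adjusted p = 0.576) at the extremes. The co-receptor *NRP1* had a rho of 0.53 (adjusted p = 0.257), and *CSF1* one of -0.58 (adjusted p = 0.17). None of these passed. *PDGFRA* and *KIT* are neighbours on their chromosome, followed by *KDR*, the main VEGF receptor of endothelium. Of 11 genes tested around them, 0 passed with *KIT* or *PDGFRA*, the largest being *USP46* with *KIT* (rho = 0.53, adjusted p = 0.25) and *RASL11B* with *PDGFRA* (rho = 0.49, adjusted p = 0.935). Of all 18105 genes, 0.0773% passed as positive and 0.149% as negative with *KIT*, and 0.0497% and 0% with *PDGFRA*. At those shares 0 of 11 is no result about the neighbours. *KDR*, which also stands in the endothelial list, passed with *PDGFRB* (rho = 0.81, r = 0.75, adjusted p = 0.00264).

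For the other ligands, likeness over the 25 FTC is a description of rank order without a test. *KITLG* was most like *RBPJ*, the effector of NOTCH signalling (rho = 0.91), the cullin *CUL5* (0.89) and the centrosomal gene *CEP57* (0.89), with r of 0.81 to 0.86. *PDGFA* had weaker neighbours, *SEMA3G* (0.69), *UNC13D* (0.68) and the WNT receptor gene *FZD7* (0.67), with r of 0.56 to 0.78. *PDGFC* was most like the mineralocorticoid receptor gene *NR3C2* (0.78), *NDUFA12*, a subunit gene of mitochondrial complex I (0.77), and *RPGRIP1* (0.76), with r of 0.64 to 0.77. *PDGFD* was most like *LIX1L* (0.79), the vesicle protein gene *SV2A* (0.78) and the protocadherin *PCDH18* (0.77), with r of 0.74 to 0.83. *PDGFD* also had a positive sign with 13 of 13 endothelial markers (median rho 0.41) and with 12 of 13 mural markers (0.36), whereas *PDGFC* had a median of -0.14 and -0.12 with those lists and *PDGFA* 0.15 and 0.03.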

How the data were processed

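Raw read counts per Ensembl gene and tumor were deposited by the authors, who depleted ribosomal RNA from total RNA and aligned the paired reads with STAR (build CanFam3.1). The strand setting of the counting is not given in the sources used here, so counts of genes overlapping on opposite strands are uncertain. The table held 30424 genes and 30 tumors, with 0 columns of no sample.

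Median-of-ratios size factors were computed from the 15611 genes counted in all tumors, and levels are log2(normalized count + 1). Spearman's rho was tested with 100000 two-sided permutations over the 25 tumors that the study lists as FTC and adjusted (Benjamini-Hochberg) over all genes that reached 10 counts in 5 or more of them. Pearson's r was added, also without the 2 tumors farthest from the median. One gene at the smallest p is not enough to pass after adjustment. Each tumor is 1 library and the unit of the permutations, so p-values refer to the association of 2 genes over tumors. Total counts set the precision, and the floor of 3 counts covers counting error only. Python 3.11.15, numpy 2.4.6, scipy 1.17.1, pandas 2.3.3, matplotlib 3.10.9 and, for TMM factors, edgeR 4.0.16 in R 4.3.3 were used. The procedure was tested on simulated counts for *KIT*. It missed more of the changes made proportional to the observed *KIT* level, where 4 low tumors carry most of the spread, than of those made proportional to its normal scores, so that absence of a call with *KIT* is weak evidence.

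Members, marker lists and gene lists were chosen with earlier results of these data known. The text names the 8 members, the 5 genes of highest and of lowest rho per receptor, the 3 of highest rho per ligand, and up to 3 genes of largest absolute rho per list, and other genes by this rule's exceptions (*CPA3*, *MS4A2*, *HDC*), chosen as defining markers after their values were seen. Gene order came from RefSeq's UU_Cfam_GSD_1.0, another build than that of the counts, and no coordinates were used. Of the list genes, *TPSAB1*, *PF4*, *GP9*, *GP1BA*, *ADIPOQ*, *FABP4* and *PLAT* could not be matched by symbol. Results of some single genes are not reported here. Alternatives were TMM scaling, Pearson's r, Pearson's r with a pseudocount of 8 (for mean levels the pseudocount alone), other count filters, and leaving out TC1088 or TC538. Leaving out the 4 FTC of lowest *KIT*, and the ranges of the members without TC538, were added after seeing the data.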

Additional observations from a re-analysis of the deposited data

How the results depend on the processing

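The pair *PDGFRB* and *PDGFB* passed under all alternatives (coefficient 0.81 to 0.87, adjusted p 0.00102 to 0.00197), and no other pair passed under any. The coefficient changed sign for *KIT* with *KITLG* without TC538 (-0.043), and for *PDGFRA* with *PDGFRB* with Pearson's r (-0.077, and -0.10 with a pseudocount of 8). Mean levels of the 8 members over 30 tumors moved by at most 0.21.

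Counts of correlated genes changed more. Genes positive with *KIT* (14) were 0 with Pearson's r, 0 with Pearson's r and a pseudocount of 8 together, 0 without the 4 tumors of lowest *KIT*, 9 without a count filter, 28 without TC1088 and 34 without TC538. Genes negative with *KIT* (27) were 0, 0, 0, 9 and 47 in the first 5 of these, and 50 with TMM scaling. Genes positive with *PDGFRA* (9) were 20 with Pearson's r, 26 with Pearson's r and a pseudocount of 8 together, 52 without TC1088 and 16 without TC538. Genes positive with *PDGFRB* (532) were 860 and 824 with Pearson's r at a pseudocount of 1 and 8, and those negative (223) were 795 and 824. The latter were 92 with TMM scaling, 119 without TC1088, 49 without TC538 and 130 without a count filter. The cause of these changes was not tested. No paired analysis was possible because the tumors form a single labelled group. Low counts limit *PDGFRA*, with 9 counts in TC812 and 13 to 17 in TC1218, TC627, TC640, TC1241 and TC538 among the FTC, and *PDGFB* in TC538.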
